A study of Mus musculus with 16 samples.

Results

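The genes described here encode proteins of the mitochondrial ribosome. They are the 78 genes, of 20113 in the deposited tables, whose symbol is Mrpl or Mrps followed by a number, 49 of the Mrpl series and 29 of the Mrps series. Accessibility was measured by ATAC-seq, which uses a transposase to insert adapters where DNA is open. Each library came from 50000 neural stem and progenitor cells cultured as neurospheres from mouse dorsal telencephalon at E12.5, mixed with 50000 Drosophila S2 cells as a spike-in. Loss of Kat6b, a histone acetyltransferase gene, was studied in 4 Kat6b-/- embryos (KO) against 4 Kat6b+/+ embryos (WT C57BL/6), both on C57BL/6. Gain was studied in 4 Tg(Kat6b) embryos (Tg), which overexpress Kat6b, against 4 Kat6b wild-type embryos (WT FVB x BALB/c). The transgenic mice are not viable on C57BL/6 and were kept on a hybrid of FVB x BALB/c, so the transgene was measured on another background than the knockout. What drives the transgene, and how many lines carry it, is not stated in the labels.

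Mitochondria make a small set of inner-membrane proteins of the respiratory chain and ATP synthase on ribosomes of their own. The RNA of these ribosomes comes from mitochondrial DNA, whereas all of their proteins come from nuclear genes and are imported. The large subunit joins amino acids and releases the chain beside the inner membrane, and the small subunit reads the messenger RNA. Symbols do not always give the place: Mrps30 and Mrps18a belong to the large subunit, Mrpl58 is also a peptidyl-tRNA hydrolase that rescues stalled ribosomes, and Mrps36 is a component of the oxoglutarate dehydrogenase complex. Many nuclear genes for mitochondrial proteins, these among them, have housekeeping promoters with sites for ETS factors, NRF1 and YY1, and start back to back with another gene.

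Reads had been counted over promoter windows of 2001 bases (76 of the 78 genes; Mrpl53 has 1825 and Mrpl34 has 1828) and over gene-end windows of 1001 bases downstream of the transcription end. Promoter counts summed to 1384643 to 5015408 per library and gene-end counts to 198347 to 489743. Tg libraries were the deepest at promoters, 4023140 to 5015408 against 1384643 to 3101439 in WT FVB x BALB/c. Summed levels on chromosome Y promoters also separated the groups compared, in CPM (counts scaled by library size). They were 123 to 130.0 for Tg, 325 to 412 for WT FVB x BALB/c, 200 to 253 for KO and 276 to 369 for WT C57BL/6. Fits on libraries thinned to equal depth are given further on. They also use fewer reads, so they do not isolate the part of depth in the results. The part of chromosome Y was not tested. The Kat6b promoter stood at 2744 to 3477 CPM in Tg and 223 to 236 in WT FVB x BALB/c (log2 change 3.79, SE 0.05, edgeR adjusted p = 5.87e-128). The Kat6b gene end stood at 340 to 436 CPM in Tg and 38.2 to 57.4 in WT FVB x BALB/c (log2 change 3.08, SE 0.18, edgeR adjusted p = 1.34e-54). Reads from the DNA of the transgene and reads from more open chromatin were not told apart. The Kat6b promoter stood at 296 to 301 CPM in KO and 251 to 304 in WT C57BL/6, and a promoter outside the deleted stretch would not check the knockout. Promoters of 8 neural stem and progenitor genes had a median of 60.5 CPM per kb in WT C57BL/6, against 3.09 to 17.3 for lists of microglial, endothelial, erythroid and mesenchymal genes. Summed over the 8 progenitor genes, libraries of WT FVB x BALB/c had 819 to 883 CPM and those of Tg 1179 to 1270, and 7 of the 8 were called higher in Tg and 1, Pax6, lower (log2 change -0.57). The same sum was 1004 to 1065 CPM for WT C57BL/6 and 1107 to 1158 for KO. The 5 mesenchymal genes summed to 164 to 180.0 CPM in WT FVB x BALB/c against 131 to 142 in Tg, and to 222 to 239 in WT C57BL/6 against 196 to 214 in KO. Not all 5 mesenchymal genes followed the sum. In Tg the log2 changes were -1.09 for Snai2, -0.38 for Twist1, -0.13 for Prrx1, 0.23 for Col1a1 and 0.335 for Pdgfra. In KO they were -0.51 for Prrx1, -0.13 for Snai2, -0.04 for Col1a1, 0.12 for Pdgfra and 0.27 for Twist1. The 5 erythroid genes summed to 65.6 to 69.6 CPM in WT FVB x BALB/c against 52.3 to 59.2 in Tg, with 1 called higher in Tg and 3 lower. Each of the sums printed here stood apart between the groups compared, and their part in the results was not tested. The microglial and endothelial sums overlapped between KO and its WT and between Tg and its WT. The erythroid sum overlapped between KO and its WT.

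Back-to-back starts were common among these genes. RefSeq starts on the build GRCm38.p6 were at hand for 69 of the 78, and 28 of them (40.6%) had the start of another gene within 1000 bases, so that the promoter window of one gene held the start of the other. The same held for 2790 of all 16019 promoters with such a start (17.4%). Of the 28 genes 26 were divergent from their neighbour, and Mrpl46 and Mrps11, both in the family, neighbour each other with 42 bases between their starts. Mrpl48 and Rab6a, which encodes a Golgi GTPase, overlapped facing each other, and Mrps6 shared its start and strand with Slc5a3, a myo-inositol transporter gene.

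The sequences below are the 250 bases before the RefSeq start, 5' to 3', of the genes that carry the results: the largest gains in Tg (Mrpl48 and Mrps6), the largest losses in Tg (Mrpl16 and Mrpl22), the highest levels (Mrpl34 and Mrpl51) and the pair inside the family (Mrps11). They are RefSeq sequences of GRCm38.p6, from chr7:100608302-100608551 on the minus strand for the first of 4 listed Mrpl48 starts, and on the plus strand from chr16:92058086-92058335 (Mrps6), chr19:11770165-11770414 (Mrpl16), chr11:58171414-58171663 (Mrpl22), chr8:71464676-71464925 (Mrpl34), chr6:125191950-125192199 (Mrpl51) and chr7:78782881-78783130 (Mrps11). Capitals mark motifs, searched on both strands: the ETS core CCGGAAG, NRF1 GCATGCG, YY1 AAGATGG, NF-Y CCAAT and TATAAA.
Mrpl48: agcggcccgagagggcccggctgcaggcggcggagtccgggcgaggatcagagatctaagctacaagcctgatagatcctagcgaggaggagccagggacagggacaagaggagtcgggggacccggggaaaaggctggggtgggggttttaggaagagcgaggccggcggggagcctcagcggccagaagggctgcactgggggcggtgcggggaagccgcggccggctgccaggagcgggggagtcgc
Mrps6: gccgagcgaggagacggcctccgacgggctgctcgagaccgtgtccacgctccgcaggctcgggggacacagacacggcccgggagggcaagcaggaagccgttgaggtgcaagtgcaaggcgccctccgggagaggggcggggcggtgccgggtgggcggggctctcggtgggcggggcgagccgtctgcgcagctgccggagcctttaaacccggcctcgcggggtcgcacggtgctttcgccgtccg
Mrpl16: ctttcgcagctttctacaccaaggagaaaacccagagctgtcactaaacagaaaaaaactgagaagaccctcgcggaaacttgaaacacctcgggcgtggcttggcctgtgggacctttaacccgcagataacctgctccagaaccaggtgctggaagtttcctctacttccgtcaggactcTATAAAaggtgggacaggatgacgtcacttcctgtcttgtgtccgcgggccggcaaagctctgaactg
Mrpl22: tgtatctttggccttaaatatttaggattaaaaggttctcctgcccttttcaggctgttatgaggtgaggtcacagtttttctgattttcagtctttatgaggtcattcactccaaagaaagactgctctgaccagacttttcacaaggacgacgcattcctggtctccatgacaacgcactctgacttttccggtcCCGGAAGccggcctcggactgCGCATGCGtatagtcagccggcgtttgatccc
Mrpl34: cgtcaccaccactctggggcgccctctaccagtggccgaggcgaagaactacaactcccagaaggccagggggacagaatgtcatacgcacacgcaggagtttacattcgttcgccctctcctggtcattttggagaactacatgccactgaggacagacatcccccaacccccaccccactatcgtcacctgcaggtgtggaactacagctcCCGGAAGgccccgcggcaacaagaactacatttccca
Mrpl51: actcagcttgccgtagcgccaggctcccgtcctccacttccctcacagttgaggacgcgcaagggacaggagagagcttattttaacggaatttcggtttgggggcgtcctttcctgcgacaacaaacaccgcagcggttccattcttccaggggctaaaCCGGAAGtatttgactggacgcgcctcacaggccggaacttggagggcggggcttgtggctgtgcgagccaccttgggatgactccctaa
Mrps11: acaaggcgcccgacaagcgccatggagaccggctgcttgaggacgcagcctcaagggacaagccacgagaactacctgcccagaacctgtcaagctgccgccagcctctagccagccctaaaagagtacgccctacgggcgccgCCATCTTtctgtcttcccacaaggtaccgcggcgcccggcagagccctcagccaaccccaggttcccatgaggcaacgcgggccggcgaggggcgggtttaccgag

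The printed stretches of Mrpl48 and Mrps6 held none of the motifs and were rich in G and C (70.4% and 74.4%). Mrpl34 and Mrpl51 each had an ETS core, at -37 and -90 from the start, and Mrpl22 had an ETS core at -53 beside an NRF1 motif that reads on both strands at -31 and -32. Mrpl16 had TATAAA at -68, and Mrps11 had a YY1 motif on the minus strand at -106. Over windows of 300 bases (250 before the start and 50 after), an ETS core was found in 25 of the 69 genes (36.2%) and in 12.52% of 15940 promoters, NRF1 in 8 (11.6%, against 4.81%), YY1 in 13 (18.8%, against 6.43%), NF-Y in 27 (39.1%, against 38.9%) and TATAAA in 4 (5.80%, against 12.8%). In 16 genes none of the letters was found. In Tg 9 of the 25 genes with an ETS core rose and 7 fell. Of the 44 without one 14 rose and 6 fell. With NRF1 1 rose and 2 fell, and with YY1 6 rose and 2 fell. With NF-Y 7 rose and 5 fell, and with TATAAA 1 rose and 1 fell. The calls of all promoters were not split by motif, and a link between motif and change was not tested.

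The paired starts showed in the counts. For 26 of the 28 genes the neighbour had a row of its own, and for 23 of these genes the counts of the 2 windows, summed over 16 libraries, lay within 5% of each other. The Mrpl46 window held 1922 counts and the Mrps11 window 1915, Mrpl18 held 6992 and Tcp1, a chaperonin subunit gene, 7004, and Mrpl48 held 7005 and Rab6a 7105. A count in such a window cannot be assigned to one gene of the pair. The other 3 were Mrpl43 with Twnk, the gene of the mitochondrial DNA helicase (2463 and 2143), Mrpl41 with Pnpla7 (6360 and 5958) and Mrps18b with Ppp1r10 (7722 and 8284). Among the 9 genes with no start in the RefSeq table, Mrpl13 matched its annotated neighbour Mtbp in counts (1479 and 1501) and Mrps34 matched Eme2 (1321 and 1310). The plot of counts in neighbouring windows shows the 26 genes, with Mrpl46 and Mrps11 as a point each.

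**Figure D1:**
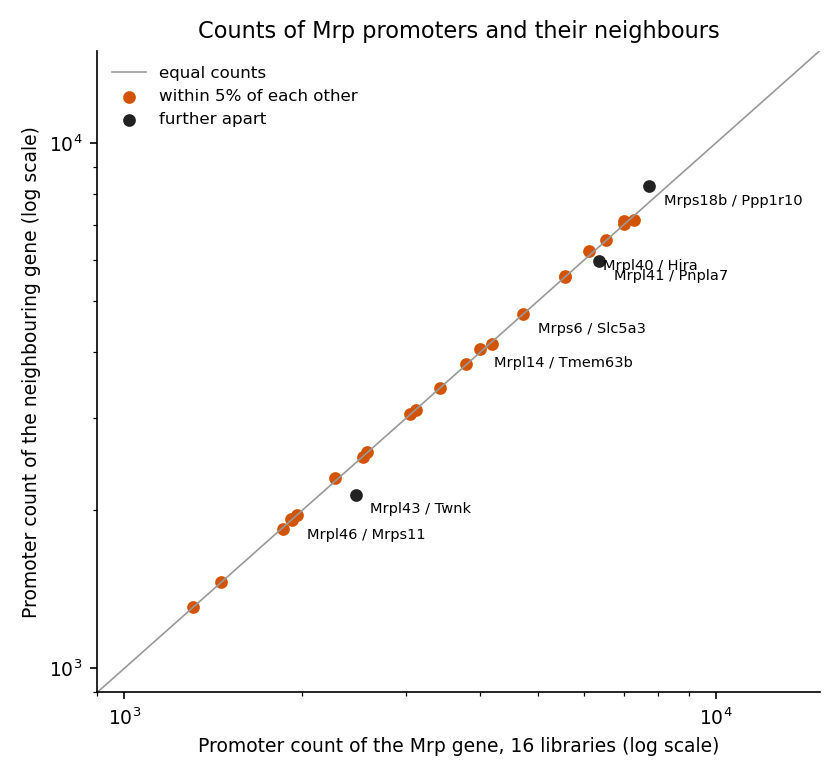
Promoter counts of 26 Mrp genes (x axis, sum over 16 libraries, log scale) against those of the gene that starts within 1000 bases (y axis, log scale). Orange points (23 genes) lie within 5% of equal counts on the grey line, and the black points (Mrpl43, Mrpl41 and Mrps18b) lie further off.

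In WT C57BL/6 the promoters of the family spanned a 25.5-fold range of accessibility per length, from 3.14 CPM per kb at Mrpl22, whose product lines the exit tunnel, to 80.0 at Mrpl34. The median was 21.9 CPM per kb against 17.7 over all tested promoters, and 50 of 78 genes lay above that median. Mrpl34 was followed by Mrpl51 (70.7 CPM per kb), Mrps18b (69.0), Mrps14 (67.8) and Mrpl48 (67.7), and at the low end Mrpl33 (9.11), Mrps10 (8.35), Mrps18a (7.76) and Mrps23 (3.96) came before Mrpl22. The order was gradual: of the 77 neighbours in rank, 75 overlapped in their libraries, the exceptions being Mrps9 above Mrpl14 and Mrps18a above Mrps23. The 28 genes with a second start in the window had a median of 71.8 CPM over the 16 libraries and the 41 without one 37.3. All promoters split the same way had 72.8 and 28.4, so the members were close to them with a second start and higher without one. The family's share of promoter counts was 0.448% ± 0.0030 for WT C57BL/6, 0.461% ± 0.0052 for KO, 0.464% ± 0.0035 for WT FVB x BALB/c and 0.468% ± 0.0041 for Tg (SD, n = 4 each). In bulk libraries, more cells with an open site and more open chromatin per cell cannot be told apart.

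Few of these promoters changed with loss of Kat6b. At an adjusted p below 0.05 (edgeR quasi-likelihood test, Benjamini-Hochberg over 20008 promoters) 3 of 78 rose in KO, and each of the 3 shares its window with another gene: Mrpl18 with Tcp1, Mrpl40 with the histone chaperone gene Hira, and Mrpl51 with the condensin gene Ncapd2. These are 3.85% of the family, against 3.99% of all promoters called. No member fell at that threshold, by edgeR or by DESeq2. At an unadjusted edgeR p below 0.05, 10 of 78 rose and 1 fell, beside 1831 higher and 1614 lower of 20008 promoters. The median log2 change was 0.05 in the family and -0.01 over all promoters.

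Mrpl18, a homologue of a bacterial protein that binds 5S rRNA, measured 120.2, 122, 139 and 118 CPM in WT C57BL/6 and 152, 154, 151 and 147 CPM in KO. All 4 KO libraries lay above all 4 WT libraries, of which replicate 3 was the highest, and the log2 change was 0.28 (SE 0.06, edgeR adjusted p = 0.00135). Mrpl40 measured 107, 112, 104 and 108 CPM in WT C57BL/6 and 124, 126, 131 and 131 CPM in KO, with no overlap (log2 change 0.25, SE 0.07, edgeR adjusted p = 0.0132). Mrpl51 measured 139, 149.8, 144 and 134 CPM in WT C57BL/6 and 159, 160, 163 and 166 CPM in KO, again with no overlap (log2 change 0.20, SE 0.06, edgeR adjusted p = 0.0409). The neighbours moved by similar amounts, Tcp1 by 0.28, Hira by 0.26 and Ncapd2 by 0.20. Without WT C57BL/6 replicate 3 the Mrpl18 call alone was made (log2 change 0.33), without KO replicate 4 the Mrpl40 call was lost (0.23), and the Mrpl51 call was lost on leaving out any single library of the 8 other than WT C57BL/6 replicate 2 (0.17 to 0.21). Thinned to equal depth, the libraries gave no call among the 78.

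Mrpl13, a large-subunit gene whose window matches that of Mtbp, had the largest KO change of the family without passing the test. It measured 27.7, 30.2, 20.3 and 28.7 CPM in WT C57BL/6 and 38.7, 33.5, 36.4 and 31.5 CPM in KO, and was named after its values were seen. The groups did not overlap, and the log2 change was 0.38 (SE 0.12, edgeR adjusted p = 0.0518). Groups stood apart in 9 of 78 genes, 8 of them higher in KO, which is 11.5% against 10.0% of all promoters.

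**Figure D2:**
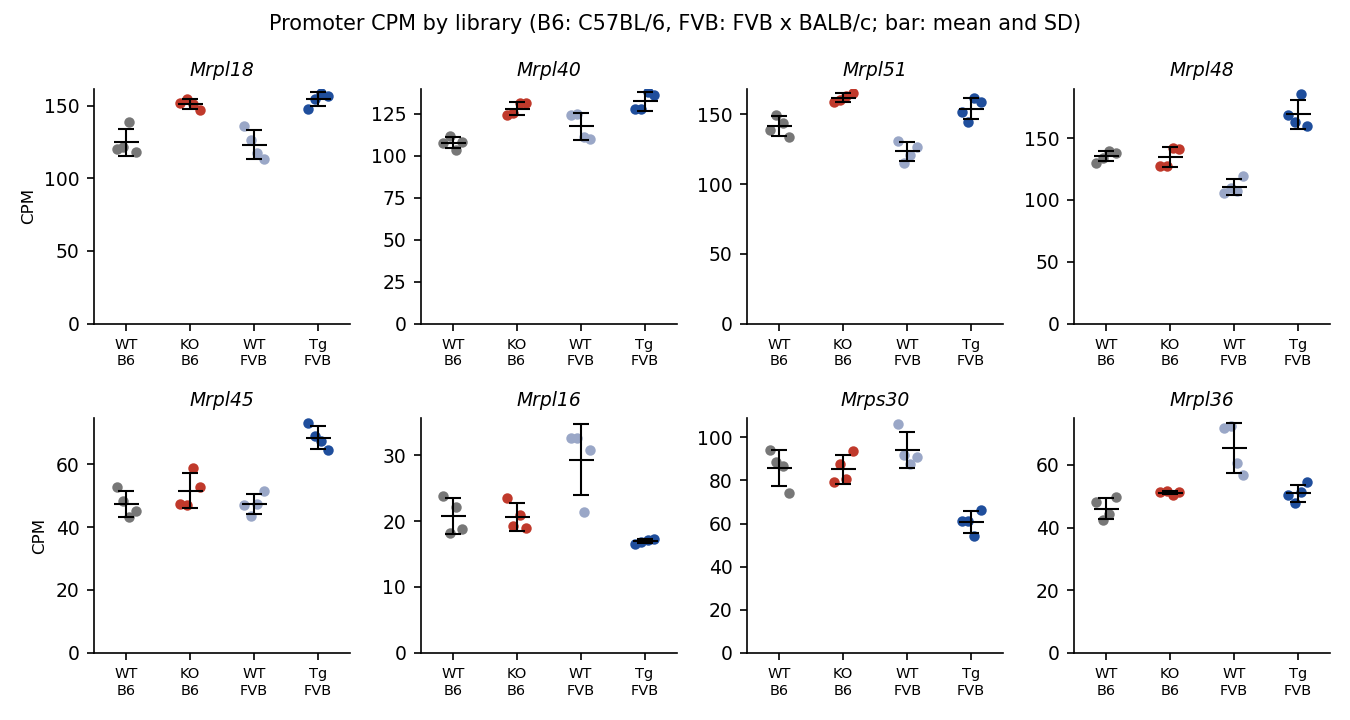
Promoter CPM of 8 Mrp genes in each library (points) with the group mean and SD (bars), n = 4 per group; B6 is C57BL/6 and FVB is FVB x BALB/c. Mrpl18, Mrpl40 and Mrpl51 are higher in KO than in WT C57BL/6 in every library, Mrpl48 and Mrpl45 are higher in Tg than in WT FVB x BALB/c, and Mrpl16, Mrps30 and Mrpl36 are lower in Tg.

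The transgene was accompanied by changes in both directions. In Tg 26 promoters of the family rose and 14 fell, and 38 did not pass the test. The 40 called genes are 51.3% of the family, against 57.3% of all promoters (26.9% higher and 30.5% lower). The median log2 change over the 78 genes was 0.08, where that of all promoters was -0.10. Of the 49 Mrpl genes 15 rose and 10 fell, and of the 29 Mrps genes 11 rose and 4 fell. Groups stood apart in 33 genes, 42.3% against 45.3% of all promoters.

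Other scalings gave other sets of calls: 17 higher and 26 lower with library totals, 12 and 16 with offsets that follow abundance, and 57 and 1 with factors taken from gene ends, which move the median of all promoters to 0.32. The family's median lay above that of all promoters under these as well, at -0.04 against -0.22, at 0.05 against 0.00 and at 0.50 against 0.32.

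The rises were mostly in shared windows. Of the 28 genes with a second start in the window 18 rose and 1 fell (median log2 change 0.23), of the 41 without one 5 rose and 12 fell (median -0.09), and of the 9 with no RefSeq start 3 rose and 1 fell. All promoters divided in the same sense, 1376 higher and 424 lower of 2790 with a second start (median 0.17) and 3033 higher and 4412 lower of 13150 without one (median -0.17). Of the 18 genes 17 had a neighbour with a row, and all 17 neighbours, whose windows share reads with theirs, rose too.

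Rises were mostly at highly accessible promoters, in the family and over all promoters. When promoters were ranked by mean CPM and cut into quartiles, 16 of 23 members in the highest quartile rose and 2 fell, 9 of 30 rose and 5 fell in the next, 1 of 23 rose and 6 fell below that, and 1 of 2 fell in the lowest. Over all promoters 3148 rose and 531 fell in the highest quartile, and 1942 rose and 1016 fell in the next. Below that 255 rose and 2014 fell, and in the lowest 32 rose and 2532 fell, of 5002 each. Median log2 changes of members and of all promoters were 0.29 and 0.25 in the highest quartile and 0.07 and 0.12 in the next. They were -0.06 and -0.27 below that, and -0.51 and -0.59 in the lowest. Within the highest quartile 12 of 14 members with a second start rose and the other 2 did not pass the edgeR test. Of the 8 members without one 3 rose and 2 fell. Over all promoters of that quartile 927 of 1364 with a second start rose and 103 fell (median log2 change 0.26). Without one, 1682 of 2779 rose and 333 fell (median 0.23), and the difference between the members and all promoters was not tested.

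**Figure D3:**
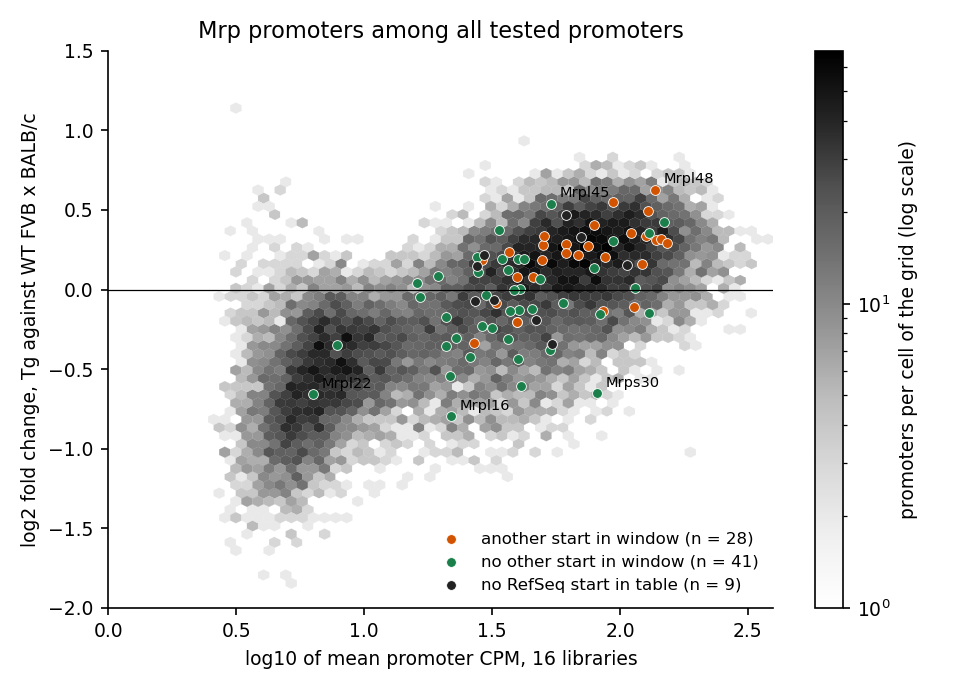
Log2 fold change of Tg against WT FVB x BALB/c (y axis) against the log10 of mean CPM (x axis) for all 20008 tested promoters (grey, darker where promoters are more frequent) and the 78 Mrp promoters (points, coloured by whether another gene starts in the window). The 28 orange points lie mainly at high levels and above 0, and Mrpl16, Mrps22 and Mrps30 lie below most promoters of their level.

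Mrpl48, which encodes a large-subunit protein, had the largest rise. It measured 106, 110.0, 107 and 119.8 CPM in WT FVB x BALB/c and 169, 163, 186 and 160.0 CPM in Tg. The groups were far apart, and the log2 change was 0.63 (SE 0.06, edgeR adjusted p = 8.29e-18). Rab6a, counted over nearly the same reads, changed by 0.63. Mrps6, a small-subunit gene, measured 67.7, 79.5, 77.4 and 89.7 CPM in WT FVB x BALB/c and 116, 119.6, 114 and 101 CPM in Tg (log2 change 0.55, SE 0.07, edgeR adjusted p = 5.1e-11). Its lowest Tg library lay above its highest WT library, and Slc5a3, which starts 14 bases away, changed by 0.55.

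Mrpl45, whose product holds the ribosome at the inner membrane beside the exit tunnel, had the largest rise among windows with no second start. It measured 47.1, 43.6, 47.4 and 51.3 CPM in WT FVB x BALB/c and 73.1, 68.8, 67.2 and 64.6 CPM in Tg, with no overlap (log2 change 0.54, SE 0.09, edgeR adjusted p = 2.59e-08). Mrpl47, whose bacterial counterpart also sits by the tunnel exit, went from 106 ± 1.73 to 149 ± 8.70 CPM (SD, n = 4), together with the complex I gene Ndufb5 (0.49 and 0.51). The other leading rises were Mrpl54 (0.47), Mrpl34 (0.43), Mrpl14 (0.40), whose product is bound by an assembly factor that blocks subunit joining, and Mrps24 (0.38), and in each of these 4 the groups did not overlap. All 8 leading rises stayed positive under every scaling tried.

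Mrpl16, a large-subunit protein beside the peptidyl transferase centre, had the largest fall. It measured 32.6, 32.6, 21.3 and 30.8 CPM in WT FVB x BALB/c and 16.6, 16.8, 17.1 and 17.2 CPM in Tg. The Tg libraries were close together and below all WT libraries, of which replicate 3 stood lowest, and the log2 change was -0.80 (SE 0.13, edgeR adjusted p = 4.43e-08). It was -0.94 without that replicate. WT C57BL/6 and KO stood between the 2 groups, at 20.7 ± 2.73 and 20.7 ± 2.10 CPM (SD, n = 4).

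Mrps30, placed in the large subunit despite its name, measured 106, 91.7, 87.4 and 91.0 CPM in WT FVB x BALB/c and 61.2, 61.2, 54.1 and 66.3 CPM in Tg. Every Tg library lay below every WT library (log2 change -0.65, SE 0.08, edgeR adjusted p = 1.09e-13). Mrps22, a small-subunit gene, fell from 45.0 ± 7.19 to 30.1 ± 1.99 CPM without overlap (mean ± SD of 4 libraries, log2 change -0.61, SE 0.10). Mrpl3, near the peptidyl transferase centre, fell from 24.4 ± 5.43 to 17.6 ± 2.85 CPM with overlapping libraries (log2 change -0.54, SE 0.14). Mrpl1, the protein of the stalk that guides used tRNA out, changed by -0.44 and Mrpl53 by -0.42, both without overlap. Mrpl36 fell by 0.38 on the log2 scale, but changed by 0.04 with gene-end factors, under which Mrps30, Mrps22, Mrpl3, Mrpl1 and Mrpl53 kept a negative sign and did not pass the test.

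Mrpl22, the least accessible of the family, also fell. It measured 5.69, 9.37, 6.53 and 9.58 CPM in WT FVB x BALB/c and 4.67, 5.94, 3.80 and 4.68 CPM in Tg. The groups overlapped, and the log2 change was -0.66 (SE 0.26, edgeR adjusted p = 0.0217). The call was lost without WT FVB x BALB/c replicate 2 (-0.53), without WT FVB x BALB/c replicate 4 (-0.59) and without Tg replicate 3 (-0.56).

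KO and Tg share no library, also not through their wild types, so their effects came from separate libraries. Loss and gain were measured on different backgrounds, however. A difference between the KO and Tg effects therefore cannot be told apart from a difference between the backgrounds or the sets of embryos. The part of background in these differences was not tested. The difference between the KO and Tg effects passed the test for 22 of 78 genes, which is 28.2% against 29.6% of all promoters. Of the 22 genes 12 had the higher change in Tg and 10 the lower. For Mrpl48 the KO change was -0.01 and the difference 0.64 (SE 0.09, edgeR adjusted p = 1.5e-09), and for Mrps6 the KO change was -0.09 and the difference 0.63 (SE 0.11, edgeR adjusted p = 3.49e-07). Mrpl16 had a KO change of 0.00 and a difference of -0.80 (SE 0.19, edgeR adjusted p = 0.000476), and Mrps30 a KO change of -0.00 and a difference of -0.65 (SE 0.11, edgeR adjusted p = 3.1e-07). With gene-end factors 34 differences passed, all of them with the higher change in Tg.

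The 3 promoters called in KO were also called higher in Tg. Mrpl18 rose by 0.31 on the log2 scale in Tg (SE 0.06), Mrpl51 by 0.32 (SE 0.06) and Mrpl40 by 0.16 (SE 0.06). The differences between the Tg and KO effects were 0.03 (SE 0.09), 0.12 (SE 0.09) and -0.08 (SE 0.09), with edgeR adjusted p of 0.84, 0.286 and 0.533. All 3 lie in the highest quartile of levels, where rises prevailed over all promoters in both comparisons (229 higher and 79 lower in KO).

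**Figure D4:**
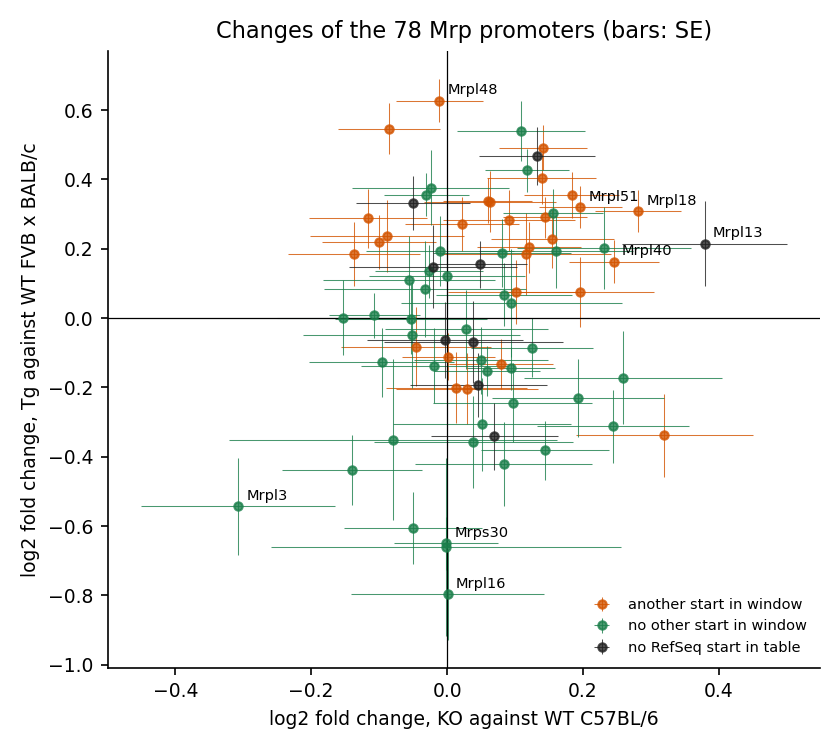
Log2 fold change in Tg (y axis) against that in KO (x axis) for the 78 Mrp promoters, with SE as bars and colour for a second gene start in the window. The points spread from -0.80 to 0.63 in Tg and from -0.31 to 0.38 in KO, and Mrpl18, Mrpl40 and Mrpl51 lie above 0 in both.

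With WT FVB x BALB/c set against WT C57BL/6, the wild types differed at 16 of 78 promoters, 8 of them higher and 8 lower on the hybrid background, which is 20.5% against 18.7% of all promoters. Background cannot be told apart here from any other difference between the 2 sets of embryos. Calls were 12 higher and 5 lower with library totals, 11 and 4 with offsets that follow abundance, 3 and 8 by DESeq2 and 1 and 16 with gene-end factors. Mrpl36, a large-subunit protein, had the largest excess, with 48.2, 42.3, 44.2 and 49.6 CPM in WT C57BL/6 and 71.8, 72.5, 60.5 and 56.8 CPM in WT FVB x BALB/c (log2 change 0.53, SE 0.09, edgeR adjusted p = 3.21e-06). The groups did not overlap. Mrpl44, which carries a fold related to RNase III, had the largest deficit, with 50.8, 51.4, 49.7 and 48.5 CPM in WT C57BL/6 and 43.3, 33.4, 30.5 and 26.01 CPM in WT FVB x BALB/c (log2 change -0.53, SE 0.11, edgeR adjusted p = 6.45e-05). Every WT FVB x BALB/c library was lower, and Tg lay close to its WT, 34.7 ± 1.86 against 33.3 ± 7.35 CPM (mean ± SD of 4 libraries, log2 change 0.00).

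Mrpl16 (0.51), Mrpl20 (0.48), Mrpl21 (0.44), Mrps15 (0.35), Mrpl39 (0.23), Mrpl32 (0.22) and Mrpl17 (0.19) were the other higher promoters, and Mrpl17 turned to -0.03 with gene-end factors. Mrpl48 (-0.30), Mrps6 (-0.29), Mrps14 (-0.29), Mrpl34 (-0.24), Mrpl41 (-0.22), Mrpl47 (-0.22) and Mrpl51 (-0.19) were the other lower ones. The Tg comparison uses the same WT FVB x BALB/c libraries, and its values for the 8 higher promoters ran from -0.80 at Mrpl16 to -0.13 at Mrpl32, with 5 called lower. For the 8 lower promoters it gave 0.00 at Mrpl44 and 0.32 to 0.63 at the other 7, all 7 called higher.

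Gene ends carried fewer reads and fewer calls. Of the 72 ends that passed the filter on low counts (Mrpl11, Mrpl48, Mrpl51, Mrps14, Mrps25 and Mrps28 did not), 1 rose in KO, which is 1.39% against 1.52% of all gene ends. In Tg 5 rose and 3 fell (11.1% against 6.27%), and between the backgrounds 2 ends were lower on the hybrid background (2.78% against 3.33%). The family's median log2 change was 0.07 in KO and -0.04 in Tg, beside 0.00 and -0.02 over all gene ends. At an unadjusted p below 0.05, 3 of the 72 ends were higher in KO, and no end was lower there by edgeR or DESeq2. Over all 15186 gene ends 737 were higher and 653 lower at that p by edgeR.

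The end of Mrpl58, the gene of the ribosome-rescue hydrolase, changed in all of these comparisons. The 4 libraries of each group gave 695, 573, 530.4 and 543 CPM for WT C57BL/6 and 917, 938, 1029 and 1031 CPM for KO. They gave 308, 271, 193 and 219 CPM for WT FVB x BALB/c and 523, 544, 561 and 431 CPM for Tg. No 2 of the groups compared overlapped, and the level in Tg was near that of WT C57BL/6. The log2 change was 0.74 in KO (SE 0.11, edgeR adjusted p = 5.57e-08), 1.03 in Tg (SE 0.13, edgeR adjusted p = 5.2e-13) and -1.22 between the wild types (SE 0.13, edgeR adjusted p = 1.06e-16). The KO and Tg effects did not pass the test of their difference (0.29, SE 0.17, edgeR adjusted p = 0.549).

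The Mrpl58 end was the family's most accessible in WT C57BL/6 (585 CPM per kb, with Mrpl2 next at 552), whereas in WT FVB x BALB/c and Tg Mrpl2 stood higher (490.0 and 739, with Mrpl58 at 248 and 514). The Mrpl58 promoter did not rise with its end. Over the 16 libraries the end held 2884 counts (2881 per kb) and the promoter 1018 (509 per kb), and the promoter changed by 0.04 in KO and -0.36 in Tg (SE 0.13, edgeR adjusted p = 0.016). In the GRCm38.p6 annotation the Mrpl58 end window holds 2 transfer RNA genes, n-TRcct5 and n-TRcct3, which RNA polymerase III transcribes. A transfer RNA gene listed in that annotation, looked up after these values were seen, lay inside 5 of 16018 end windows. Whether the annotation lists all such genes was not checked. Distances between the 5 windows were not measured either, so they need not be separate examples. The other 4, behind Borcs6, Ctc1, Hes7 and Per1, lie on chromosome 11 like Mrpl58, and their log2 changes were 0.43 to 0.59 in KO (2 of 4 called) and 0.89 to 1.13 in Tg (4 of 4 called). Between the wild types these 4 ends had values of -0.20 to -0.43, none past the test by edgeR, so the shift of -1.22 at Mrpl58 was the largest of the 5.

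The start of a further gene lay in the end window of 2 of 69 genes, Mrpl2 and Mrps18b (2.90%, against 2.65% of 16018 gene ends). The ends of Mrps34 and Mrpl38, which have no start in the RefSeq table, were not searched. The Mrpl2 end holds the start of the ubiquitin ligase gene Cul7 and measured 554, 514.5, 466 and 428 CPM in WT FVB x BALB/c and 725, 726, 776 and 732 CPM in Tg. The Tg libraries were all above WT (log2 change 0.58, SE 0.11, edgeR adjusted p = 1.11e-05), whereas the Cul7 promoter changed by 0.11 (edgeR adjusted p = 0.227). Mrps34, a small-subunit gene with Eme2 and Nme3 next to it, rose at its end from 158 ± 28.2 to 294 ± 22.9 CPM in Tg (mean ± SD of 4 libraries, log2 change 0.88, SE 0.15, edgeR adjusted p = 2.13e-07). Mrpl38, of the central protuberance, rose from 152 ± 32.7 to 274 ± 53.1 CPM (log2 change 0.81, SE 0.15, edgeR adjusted p = 4.49e-06), and between the wild types this end was lower on the hybrid background (-0.63, SE 0.16), a call lost without WT FVB x BALB/c replicate 4 (-0.52). End counts per kb exceeded promoter counts per kb in 5 of 78 genes, Mrpl2, Mrpl58, Mrps34, Mrpl22 and Mrps23.

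**Figure D5:**
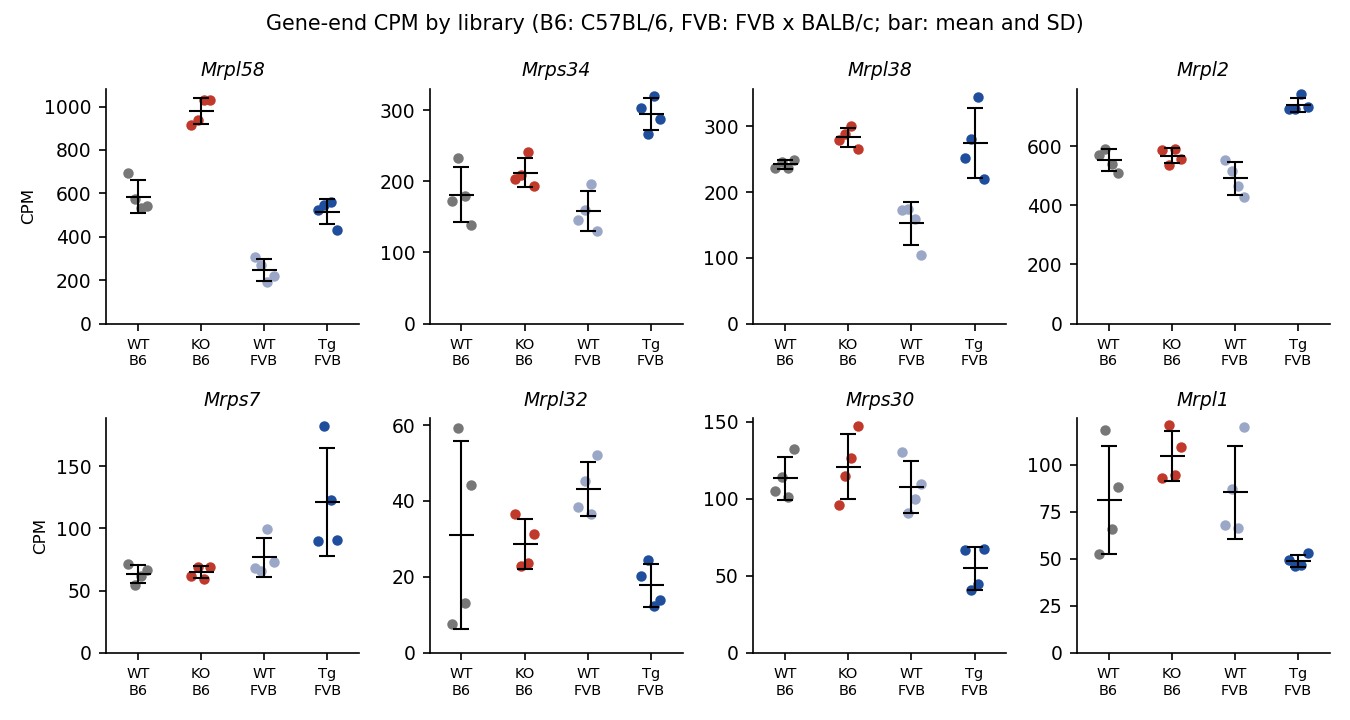
Gene-end CPM of the 8 Mrp genes called in Tg, in each library (points) with the group mean and SD (bars), n = 4 per group; B6 is C57BL/6 and FVB is FVB x BALB/c. Mrpl58 is higher in KO and in Tg than in the matching WT, and Mrpl32, Mrps30 and Mrpl1 are lower in Tg than in WT FVB x BALB/c.

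The falls at gene ends overlapped with those at promoters for 2 genes. The Mrps30 end measured 130.4, 90.4, 99.8 and 109.5 CPM in WT FVB x BALB/c and 66.5, 40.8, 44.3 and 67.2 CPM in Tg (log2 change -0.98, SE 0.21, edgeR adjusted p = 0.000203). The groups stood apart, as they did at its promoter. The Mrpl1 end fell from 85.4 ± 24.8 to 48.9 ± 3.20 CPM (mean ± SD of 4 libraries, log2 change -0.73, SE 0.23, edgeR adjusted p = 0.0319), but lost the call without WT FVB x BALB/c replicate 2 or 4 and without Tg replicate 1, 2 or 3 (-0.58 to -0.73). Mrpl32, whose product is matured by an inner-membrane protease, fell at its end from 43.1 ± 7.06 to 17.7 ± 5.65 CPM (log2 change -1.26, SE 0.36, edgeR adjusted p = 0.0102), and without Tg replicate 3 the call was lost (-1.11). The Mrps7 end rose by 0.65 on the log2 scale (SE 0.20, edgeR adjusted p = 0.0222), with Tg replicate 2 at 182 CPM and the others at 89.6 to 123, and without that replicate the value was 0.40 and the call was lost, as it was without WT FVB x BALB/c replicate 1 (0.59) or 2 (0.58).

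Genes that serve mitochondrial translation beyond the Mrp symbols were followed in 5 lists, of which 71 of 72 genes were matched. In KO 2 of the 71 passed the test (2.82%, against 3.99% of all promoters), both higher: Dap3, a GTP-binding protein of the small subunit (0.20, SE 0.06, edgeR adjusted p = 0.0495), and Tfb1m, the methyltransferase of the small rRNA (0.21, SE 0.06, edgeR adjusted p = 0.0331). In Tg 21 rose and 12 fell (46.5% called, against 57.3% of all promoters), with a median log2 change of 0.03. Among 5 mitoribosomal proteins with other symbols 3 rose in Tg, led by Dap3 (107 ± 7.99 to 168 ± 7.68 CPM, SD, n = 4; 0.66, edgeR adjusted p = 4.07e-19). Of 28 assembly factors 7 rose and 5 fell, with Trub2, a pseudouridine synthase, at 0.44 and Mterf4 at -0.37.

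Of 13 translation factors 2 rose and 5 fell in Tg, with the insertase gene Oxa1l at 0.28 and the release factor gene Mtrf1 at -0.88 (26.9 ± 3.19 to 14.9 ± 0.927 CPM, SD, n = 4; edgeR adjusted p = 5.8e-09). Of 8 transcription and mRNA factors 2 rose, led by Tfb2m (0.31), and of 17 mitochondrial aminoacyl-tRNA synthetases 7 rose and 2 fell, with Hars2 at -0.29. For comparison, 43 of 81 cytosolic ribosomal protein promoters rose in Tg and 3 fell (median log2 change 0.21), and 41 of 99 promoters of oxidative phosphorylation subunits rose and 15 fell (0.13). In KO these lists had 1 of 81 and 4 of 99 genes past the test. Differences between the lists were not tested.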

How the data were processed

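Per-region read counts, unnormalised as deposited by the authors, were made with featureCounts on mm39 per the submitters' processing notes; no aligner, filter or use of the spike-in is named in the sources used here. Promoter and gene-end counts of 16 libraries (4 per group, 1 per embryo per the series' design text) were used, and enhancer-region counts were not used here. Gene IDs were matched to RefSeq symbols (20091 of 20113), and 17 regions (chromosome Y, Xist, Tsix) were left out per class. After filterByExpr (minimum count 10), 20008 promoters and 15186 gene ends entered 1 edgeR 4.0.16 quasi-likelihood fit per class over all 16 libraries (TMM scaling, R 4.3.3, limma 3.58.1, Benjamini-Hochberg adjustment, threshold 0.05), checked on simulated data. CPM are TMM-scaled. Biological variation between replicates had a coefficient of 0.0378 at promoters and 0.0777 at gene ends. Counts were also higher at promoters, so smaller changes can be seen at promoters. Second starts were sought within 1000 bases of the RefSeq start on GRCm38.p6, a build other than that of the counts. Alternatives were DESeq2 1.42.0, other scalings, no filter, equal depth, fits of the compared groups only, a replicate block and leaving out each library. Text names, per comparison, up to 8 called promoters and 4 called gene ends in each direction, the 5 highest and lowest promoter levels and the leading called gene of each pathway list (1 of these is not reported here); Mrpl13, Mrps11 and the Mrpl2 end were added after their values were seen. The members and lists were chosen with earlier results of these data known.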

Additional observations from a re-analysis of the deposited data

Results flagged for a closer look

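Of 168 groups of 4 libraries examined over the genes named here, 7 held a library whose gap to the nearest of the others was large against the group's range (beyond Dixon's 95% critical value); chance gives about 1 in 20. Promoter values stood apart for Mrpl1 in Tg replicate 3 (29.0 CPM, the others 34.9 to 35.7), Mrpl14 in KO replicate 3 (84.4, others 72.6 to 74.2), Mrpl16 in WT FVB x BALB/c replicate 3 (21.3, others 30.8 to 32.6), Mrpl18 in WT C57BL/6 replicate 3 (139, others 118 to 122), Mrpl39 in Tg replicate 1 (78.5, others 84.3 to 84.9) and Mrpl41 in Tg replicate 3 (156, others 130.0 to 134). The Mrpl2 gene end stood apart in Tg replicate 3 (776 CPM, others 725 to 732).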

How the results depend on the processing

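Counts of called promoters, main value first, were as follows. In KO (3) they were 1 with offsets that follow abundance, 0 at equal depth, 0 without shared windows and 1 to 4 on leaving out 1 library. By edgeR at an unadjusted p below 0.05 the KO count was 11, beside 3445 of all 20008 promoters, and DESeq2 called 2. In Tg (40) they were 23 at equal depth, 21 without shared windows and 35 to 43 on leaving out 1 library. Between the wild types (16) they were 7 at equal depth, 9 without shared windows and 11 to 15 on leaving out 1 library. For the difference of effects (22) they were 11 at equal depth, 34 with gene-end factors and 17 to 23 on leaving out 1 library. Fewer reads enter the fits at equal depth. The setting without shared windows leaves out only genes with a known second start, and 50 of the 78 genes are counted in an unchanged fit. These include the 9 genes with no RefSeq start, of which Mrpl13 and Mrps34 match a neighbour in counts. Otherwise the cause was not tested.

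Called gene ends in Tg (8) were 5 by DESeq2, 5 at equal depth and 6 to 9 on leaving out 1 library. Between the wild types (2) they were 1 with offsets that follow abundance and 1 to 2 on leaving out 1 library, 1 without WT FVB x BALB/c replicate 4. In KO the count was 1 in every fit run.

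Median log2 changes moved as follows. In KO (0.05) promoters gave 0.0223 with library totals, 0.0364 with offsets that follow abundance, 0.0304 at equal depth, 0.136 with gene-end factors and 0.0444 to 0.0607 on leaving out 1 library. In Tg (0.08) they gave -0.0412 with library totals, 0.497 with gene-end factors and -0.0558 without shared windows. Between the wild types (0.04) they gave -0.165 with gene-end factors. The difference of effects (-0.01) gave -0.0968 with library totals, 0.323 with gene-end factors, -0.0601 without shared windows and -0.0317 to 0.0351 on leaving out 1 library. Gene ends in Tg (-0.04) gave -0.208 with library totals.

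With gene-end factors Mrpl36 in Tg turned to 0.0415 and Mrpl17 between the wild types to -0.0288. Of the 45 results on named genes, the other settings kept direction and call in 334 instances, lost the call in 58 and turned the direction in 2; leaving out 1 library kept them in 309 and lost the call in 51. Deviations of same-numbered libraries at promoters correlated at -0.11 to -0.02 between WT C57BL/6 and KO and at -0.06 to 0.06 between WT FVB x BALB/c and Tg, where 0 of 4 correlated best with their own number, and at 0.02 to 0.18 between the wild types, where 3 of 4 did; no comparison had every correlation above 0.1, so the numbers were not taken as pairs. With a replicate block the counts of called promoters were 3 in KO, 42 in Tg, 17 between the wild types and 23 for the difference, and those of gene ends 1, 8 and 2. A fit of the compared groups only is the same as the main fit for the difference of effects and was not run. Counts at gene ends were low, so only large changes could be seen there.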
